A study of Mus musculus with 2 samples.

Results

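The 9 genes described here encode the hedgehog ligand (Shh), its receptors (Ptch1, Boc, Gas1), the transducers of the signal (Smo, Gli2, Gli3) and the feedback targets of the pathway (Gli1, Hhip). The rule takes them by name and uses no measured value, although earlier results of these data were known when the genes were chosen: every non-control probe that the array files assign to one of these names was taken, which gave 15 probes for 9 of the 32947 gene names on the array. Total RNA came from 46C cells, a mouse embryonic stem cell line with GFP inserted at the neural gene Sox1. The cells had been aggregated in low-adhesion dishes with knockout serum replacement and were taken at day 5 of neural differentiation. The 2 groups have 1 one-colour array each: KO-Linc1548 cells, labelled as a knockout of a long intergenic non-coding RNA, and wild type (WT) cells. The labels give neither how the knockout was made nor whether it is 1 clone. With 1 array per group there is no replicate check on any difference, so differences are described without a test or p-value.

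Sonic hedgehog is a secreted, lipid-modified ligand that the notochord and the floor plate release into the neural tube, where it sets the ventral progenitor domains. Without ligand, Patched 1 holds the membrane protein Smoothened inactive and GLI3 is processed mainly to a repressor. With ligand, Smoothened gathers in the primary cilium, and GLI2 and GLI3 act as transcriptional activators of targets that include Gli1, Ptch1 and Hhip. Patched 1 and HHIP bind the ligand and so dampen the response, while BOC and GAS1 are co-receptors that help the ligand to bind.

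On the KO-Linc1548 array, 7 of the 9 genes had a signal lower by 2-fold or more than on the WT array, against 8.81% of the 18671 genes measured. The other 2 (Gli2 and Gli3) were within 2-fold, and 0 were higher by 2-fold or more, against 11.5% of all genes. Lower by any amount were 8 of the 9, against 43.2% of all genes. Of the 13 probes measured on both arrays, 10 were lower by 2-fold or more, against 8.44% of all probes. The log2 differences, KO-Linc1548 minus WT, had a median of −1.06 over the 9 genes and of 0.10 over all genes. They fell into 3 sizes, with Hhip and Shh about −3, Gas1, Ptch1, Smo, Boc, Gli1 and Gli3 between −1.30 and −0.90, and Gli2 at 0.07. The place of Boc is uncertain, since its value is the median of 2 probes that disagree (−2.34 and 0.26). The probe signals, on a common scale for the 2 arrays, are shown in the plot of signals by probe. No check of the knockout itself was made, since 0 probes are named for Linc1548. In RNA from whole cultures, fewer cells that express a gene and less RNA per cell cannot be told apart.

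**Figure D1:**
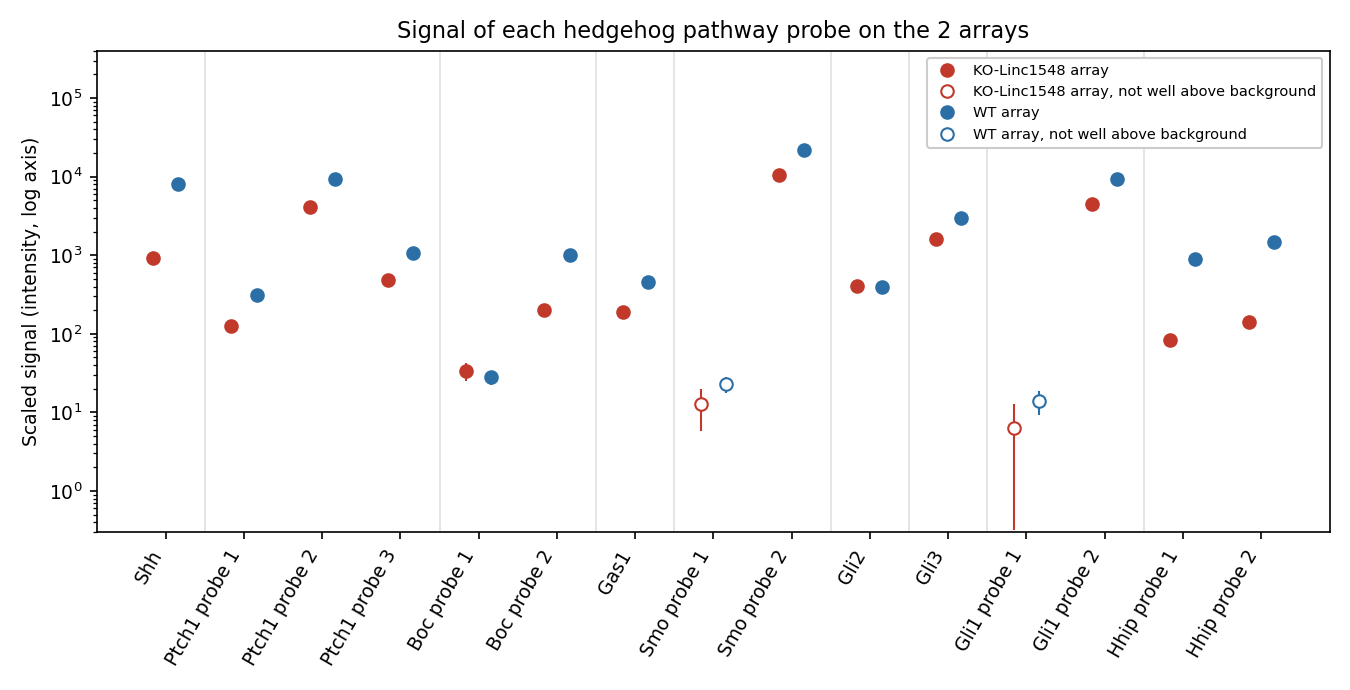
Scaled signal (log axis) of the 15 probes of the 9 genes, KO-Linc1548 in red at the left and WT in blue at the right of each pair. Error bars are the error that the scanner software gave each spot, smaller than the point for bright spots. The lower arm of the Gli1 probe 1 bar in KO-Linc1548 is cut short, because the error there exceeds the signal. Open circles mark spots not well above background. For 11 of the 13 probes with filled circles on both arrays the KO-Linc1548 point lies below the WT point, while for Gli2 and Boc probe 1 it lies slightly above.

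The probes are 60 bases long, and their positions in the files refer to mouse build mm9. The last 30 bases, 5′ to 3′, are shown for the probes on which the largest differences rest (Shh, Hhip), for the pair that disagrees within a gene (Boc), and for the Gli1 probe with the Arhgap9 probe that faces it on the other strand. Capitals mark the 23 bases that are complementary between the Gli1 and Arhgap9 probes. The other sequences have none.
Shh: ggatgtttttgcatttataaactgagaagt
Hhip probe 1: ttttgtctctgttactttctcttcatagtc
Hhip probe 2: ggatttaatgaatttttaggtgaaaggatg
Boc probe 1: cttgacacttgcactgactaggacctactg
Boc probe 2: gtagacagttctgactcctgccaagtgggt
Gli1 probe 2: gaaagaaCAAACTTTAATAATGACACAGTT
Arhgap9: gtcaggaAACTGTGTCATTATTAAAGTTTG

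Shh, the ligand, has 1 probe, at chr5:28783456-28783515 on the minus strand. Its scaled signal was 914 ± 91.6 on the KO-Linc1548 array and 8024 ± 802 on the WT array, where ± is the error that the scanner software gave the spot and so covers error within an array only. The signals lie far apart relative to that error. For bright spots the software error is close to a fixed share of the signal. Repeated spots of a probe spread less, with a noise SD of 0.096 for a log2 difference. The log2 difference was −3.13 ± 0.20, an 8.78-fold lower signal in KO-Linc1548, and 0.578% of all measured genes had a lower difference. The probe was well above background on both arrays. Neighbours were taken as probes within 100 kb of a member's probes. The 9530036O11Rik probe, 23.9 kb from the Shh probe and on the opposite strand, read 239 on the KO-Linc1548 array and 724 on the WT array, a log2 difference of −1.60. The Rbm33 probe, 41.0 kb away on the other side, differed by −0.25. Of the 2 neighbours of Shh, 1 was thus lower by 2-fold or more and the other was within 2-fold. Of all measured probes 8.44% were lower by as much, and 2 neighbours are too few to set apart from that share.

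Ptch1, the receptor that is also a target of the pathway, has 3 probes on chromosome 13, and all were lower in KO-Linc1548. Probe 1, whose 60 bases match a genomic stretch of 344 bases (chr13:63644484-63644827), read 124 ± 13.9 in KO-Linc1548 and 311 ± 31.4 in WT. Probe 2 (chr13:63638793-63638852), designed on another transcript, read 4144 ± 414 in KO-Linc1548 and 9467 ± 947 in WT. Probe 3 (chr13:63612907-63612966) read 491 ± 49.5 in KO-Linc1548 and 1062 ± 106 in WT. The log2 differences of −1.32, −1.19 and −1.11 spanned 0.20, less than the software error of the difference between the first and the last (0.30). Their median makes Ptch1 2.28-fold lower.

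The co-receptors were lower by their brighter probes. Boc, an immunoglobulin-family membrane protein that binds the ligand, has 2 probes on chromosome 16 that did not give the same result. Probe 2 (chr16:44485845-44485904) read 201 ± 21.2 in KO-Linc1548 and 1018 ± 102 in WT, a log2 difference of −2.34 ± 0.21. Probe 1 (chr16:44499199-44499258), designed on a cerebellum cDNA clone, read 33.6 ± 8.9 in KO-Linc1548 and 28.1 ± 5.9 in WT, a log2 difference of 0.26 ± 0.49. Probe 1 was close to background on both arrays, where the lowest signals called well above background were 30.5 in KO-Linc1548 and 21.3 in WT. The 2 probes differed by 2.60 ± 0.53, and the value used for Boc, the median of both at −1.04, describes neither; with probes near background left out it was −2.34. Gas1, a membrane-anchored co-receptor with 1 probe (chr13:60276217-60276276), read 187 ± 19.8 in KO-Linc1548 and 459 ± 46.1 in WT, a log2 difference of −1.30 ± 0.21. With another background correction (normexp) Gas1 was at −0.99 and Boc at −0.79, both within 2-fold. That correction was run with an offset of 50 added to every signal, which by itself makes the differences of dim probes smaller.

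Smo, the membrane protein that Patched 1 restrains, read 10363 ± 1036 in KO-Linc1548 and 21584 ± 2158 in WT at its brighter probe (chr6:29711225-29711284). The log2 difference was −1.06 ± 0.20, or 2.08-fold lower. Its other probe (chr6:29687915-29687974), designed on an eyeball cDNA clone, was not well above background on either array, at 12.9 in KO-Linc1548 and 22.9 in WT, and was not used; with that probe kept Smo was at −0.95, within 2-fold. Among 680 genes whose mean log2 signal lay within 0.5 of that of Smo, 1.76% were at least 2-fold lower and the median difference was 0.24. For the dimmer Hhip, 12.6% of 2706 genes of like signal were at least 2-fold lower. Over the 9 genes this share ran from 1.76% for Smo to 13.4% for Gas1, with 13.3% for Boc. The share of genes lower by 2-fold or more thus differed with signal.

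The 3 Gli factors, zinc finger proteins that carry the signal to DNA, did not share 1 difference. Gli2, the main activator at the start of the response, read 409 ± 41.4 in KO-Linc1548 and 391 ± 39.3 in WT (chr1:120731255-120731314), signals that overlap within the software error. Gli3, the main source of repressor, read 1595 ± 160 in KO-Linc1548 and 2975 ± 298 in WT (chr13:15821502-15821561), a log2 difference of −0.90 ± 0.20, just under the 2-fold limit. Gli1, an activator that is itself transcribed in response to the signal, read 4544 ± 454 in KO-Linc1548 and 9254 ± 925 in WT (chr10:126766967-126767026), a log2 difference of −1.03 ± 0.20, just past it. Gli3 lay below Gli2 by −0.96 ± 0.29 on the log2 scale and Gli1 lay below Gli2 by −1.09 ± 0.29, whereas Gli1 and Gli3 differed by −0.13 ± 0.29, less than the software error. Differences between members of this kind do not depend on a constant shift between the arrays. The sign of the Gli2 difference does: it was 0.07 as reported and −0.31 under spike-in centring.

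The value of Gli1 rests on its second probe. The first (chr10:126775021-126775080), designed on a spleen cDNA clone, was not well above background on either array, at 6.4 in KO-Linc1548 and 13.9 in WT. The second probe overlaps that of Arhgap9, a gene on the opposite strand, over 23 bases (chr10:126766967-126766989), which are the capitals in the sequences above. Arhgap9 read 532 on the KO-Linc1548 array and 140 on the WT array, a log2 difference of 1.93. The 2 overlapping probes therefore went in opposite directions, Gli1 lower and Arhgap9 higher in KO-Linc1548. Whether labelled RNA of one gene bound the probe of the other was not tested. Of the other 14 probes of the 9 genes, none shared a run of more than 16 bases with a probe of another gene, in either orientation.

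Hhip, the secreted and membrane-bound protein that sequesters hedgehog ligands, had the lowest difference of the 9 genes as reported, though not with normexp, where Shh was lower (−3.08). Probe 1 (chr8:82494280-82494339) read 82.3 ± 10.6 in KO-Linc1548 and 894 ± 89.5 in WT. Probe 2 (chr8:82489879-82489938) read 140 ± 15.6 in KO-Linc1548 and 1457 ± 146 in WT. The probes gave log2 differences of −3.44 and −3.38, which differ by less than their software error (0.32). The median, −3.41, makes Hhip 10.6-fold lower, and 0.391% of all measured genes had a lower difference. The lowest signal called well above background was 30.5 on the KO-Linc1548 array. With normexp, whose offset of 50 is large beside the KO-Linc1548 signals of Hhip, the difference of Hhip was smaller, at −2.67. The feedback targets were not lower by 1 common factor. Hhip probe 2 lay below Ptch1 probe 3 by −2.26 ± 0.30 and below Gli1 probe 2 by −2.35 ± 0.30, while Hhip probe 2 and Shh differed by 0.24 ± 0.30.

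**Figure D2:**
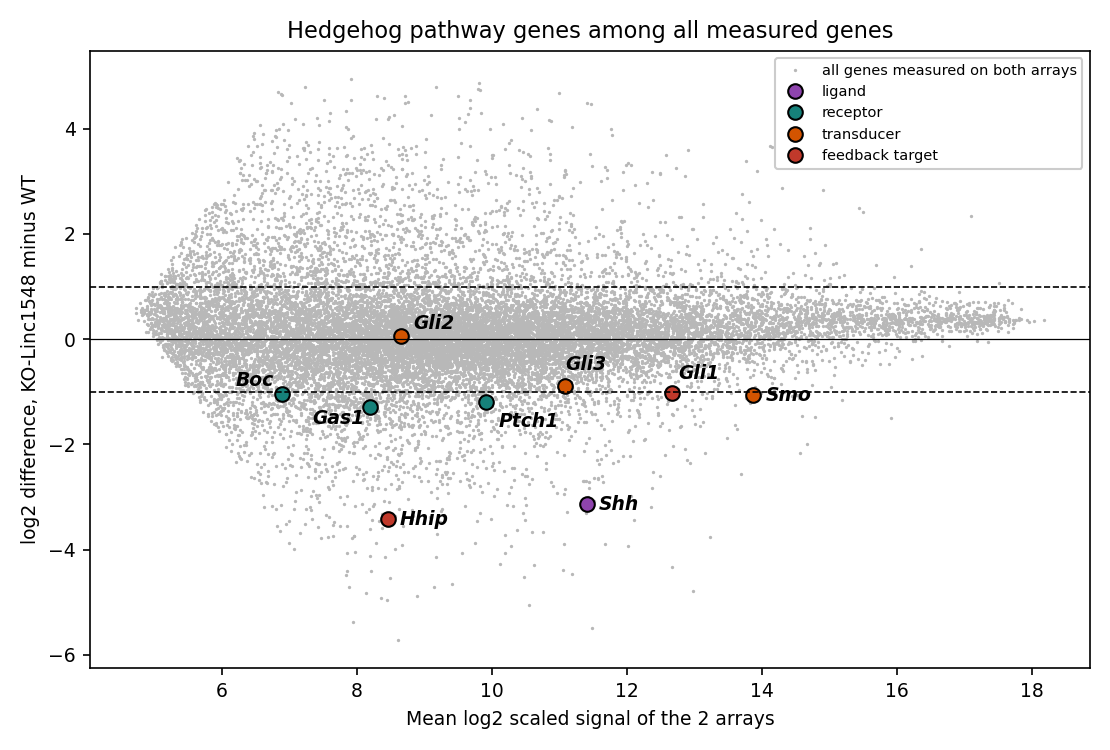
Log2 difference (KO-Linc1548 minus WT) against mean log2 scaled signal for the 18671 genes measured on both arrays (grey) and the 9 hedgehog genes, coloured by role; dashed lines mark 2-fold. Shh and Hhip lie near the lower edge of the cloud at −3.13 and −3.41, 6 further members lie between −1.30 and −0.90, and Gli2 lies at 0.07. The point of Boc is the median of 2 probes that disagree.

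Under 8 other processing settings, between 5 and 8 of the 9 genes were lower by 2-fold or more, and 0 were higher by as much. The plot by setting shows that Shh, Hhip, Ptch1 and Gli1 were past 2-fold in all 8, and that Boc, Gas1 and Smo each dropped inside 2-fold in 1 of them. Gli3 was past 2-fold in 1 of the 8, spike-in centring (−1.28), which moved every difference by −0.38.

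**Figure D3:**
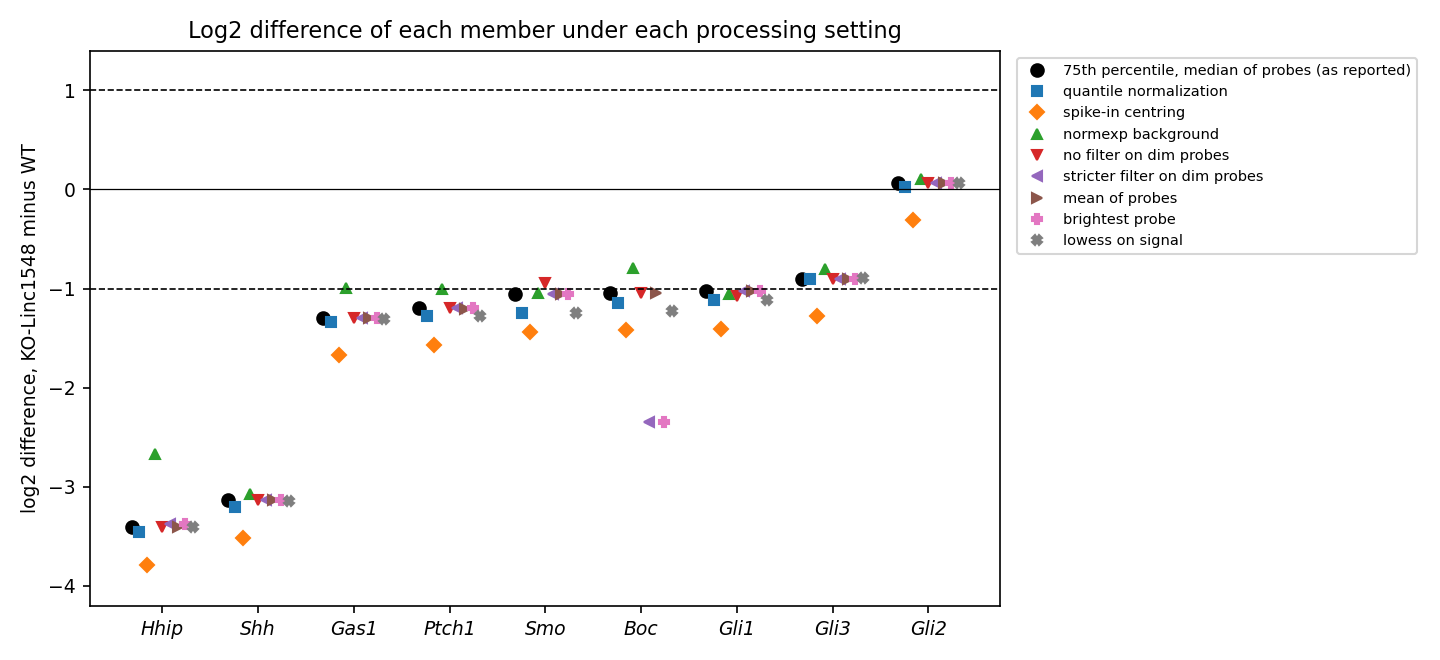
Log2 difference (KO-Linc1548 minus WT) of each gene as reported (black) and under the 8 other settings; dashed lines mark 2-fold. Hhip ranges from −3.79 to −2.67, Shh from −3.51 to −3.08 and Boc from −2.34 to −0.79, while Gli2 stays between −0.31 and 0.10.

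Other genes of the pathway were described by lists, some of which share genes, and differences between lists were not tested. Each count is to be read against the shares of all genes given above, 8.81% lower and 11.5% higher. Of 13 measured genes for making and releasing the ligand, 4 were at least 2-fold lower and 0 higher, with a median of −0.53 (2 lower with normexp). Scube1, a secreted protein that helps to release the ligand from cells, was 9.63-fold lower, with probes at −3.43 and −3.10, and Gpc6, a glypican, was 2.44-fold lower. At the other end were Dhh, the desert hedgehog ligand (0.77), and Sulf1, a heparan sulfatase (0.18, with probes from −0.57 to 0.55). The Dhh probe was close to background on both arrays, at 56.8 in KO-Linc1548 and 33.4 in WT. Of 7 other receptors and surface modulators, 1 was at least 2-fold lower (14.3%, against 8.81% of all genes), a count too small to set apart from that share, with a median of −0.32. That gene was Vtn, vitronectin, at 253 in KO-Linc1548 and 4875 in WT (−4.27), followed by Mgrn1 (−0.52); Lrp2, a large endocytic receptor, was the highest (−0.05, with probes from −1.20 to 0.61).

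Genes of intracellular transduction and of the cilium were mostly within 2-fold (44 of 51). Of the others, 5 were lower (9.80%, near the 8.81% of all genes) and 2 higher (3.92%, against 11.5%), with a median of −0.30; with spike-in centring 11 were lower and 1 higher, and with normexp 2 were lower. Stk36, the fused kinase homologue, read 104 in KO-Linc1548 and 362 in WT (−1.80), and Gpr161, a ciliary receptor that restrains the pathway, read 560 in KO-Linc1548 and 1612 in WT (−1.53). Zic2, a zinc finger factor that can bind Gli proteins and is also expressed in the epiblast, was 1 of the 2 that were higher (1.37). Sufu, which holds Gli proteins in the cytoplasm, and Kif7, a ciliary kinesin, were within 2-fold at −0.56 and −0.74, but the 4 Sufu probes ran from −1.39 to 2.16; both genes were picked for mention after their values were seen.

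Ventral neural tube factors that the signal induces were mostly lower. Of 7 measured, 6 were at least 2-fold lower and 0 higher, with a median of −3.29. Nkx6-1, a factor of ventral progenitors and motor neuron precursors, read 464 in KO-Linc1548 and 9671 in WT (−4.38). The highest were Foxj1, a regulator of motile cilia (0.33), and Foxa2, a floor plate factor (−1.88). The next list holds factors of the dorsal and intermediate neural tube, several of which the signal represses ventrally. Of 13 measured, 8 were at least 2-fold lower and 0 higher, with a median of −1.12. Dbx1 (−3.67) and Pax6 (−3.58) were the lowest, and Wnt3a (0.61) and Msx2 (0.43) the highest. Both lists thus had medians below 0, as did the 9 genes.

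**Figure D4:**
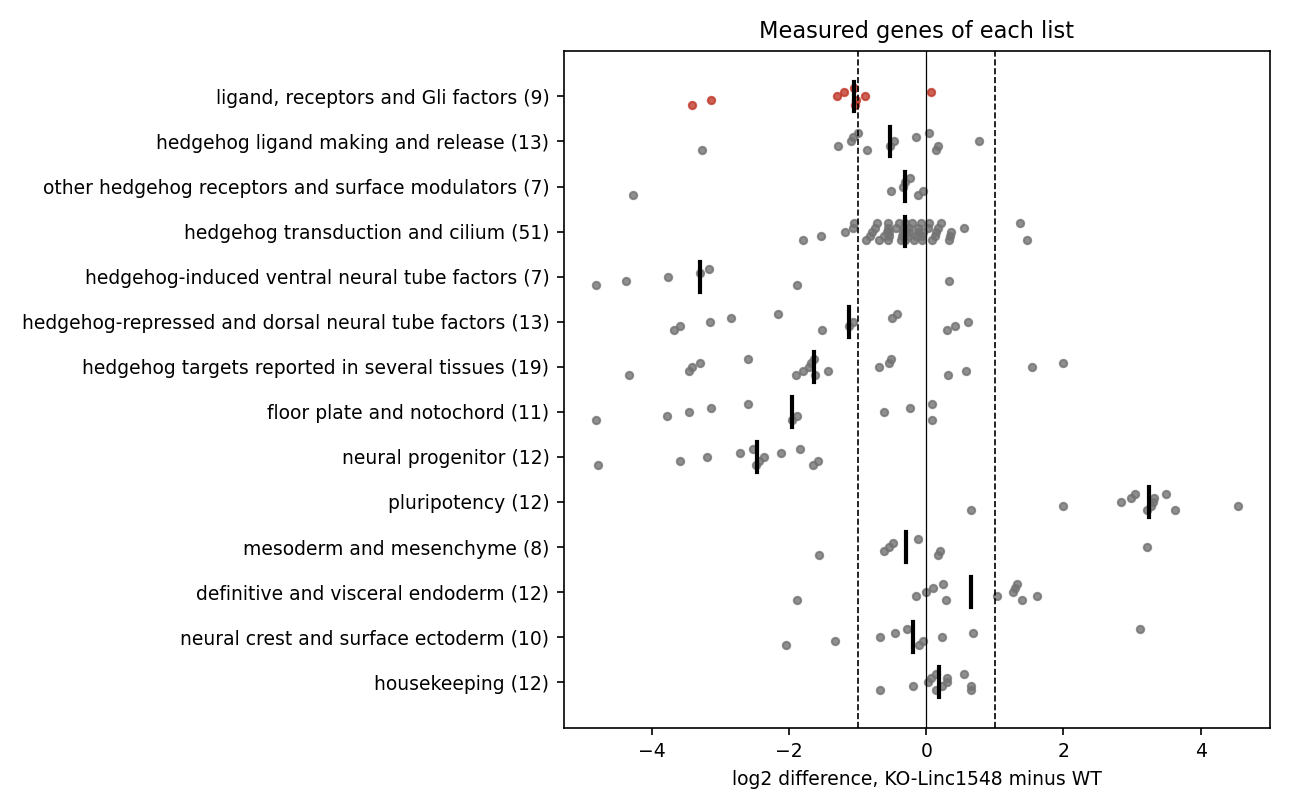
Log2 difference (KO-Linc1548 minus WT) of every measured gene in the 9-gene set (red) and in 13 lists (grey), with the number of measured genes in brackets, the list median as a black bar and 2-fold as dashed lines. The medians run from −3.29 for ventral neural tube factors to 3.25 for pluripotency genes, with −1.06 for the 9 hedgehog genes.

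Markers of neural progenitors were lower, as were most of the hedgehog genes, while the list of floor plate and notochord genes was split. All 12 neural progenitor markers were well above background on both arrays and at least 2-fold lower in KO-Linc1548, with a median of −2.46 and a summed signal of 13337 in KO-Linc1548 and 109983 in WT. Hes5 (−4.78) and Pax6 were the lowest, and Msi1 (−1.57, with 1 of its 3 probes at 0.09) and Ncam1 (−1.65) the highest. Of 11 measured floor plate and notochord genes, Shh among them, 7 were at least 2-fold lower, with a summed signal of 10541 in KO-Linc1548 and 41219 in WT. Corin, a floor plate serine protease, was among the lowest (−3.77). The notochord genes T (−0.61), Chrd (−0.23), Noto (0.09) and Nog (0.09) were within 2-fold. T and Chrd were chosen with their values in view. Chrd was close to background, at 44.5 in KO-Linc1548 and 52.3 in WT. Noto (119 in KO-Linc1548, 112 in WT) and Nog (101 in KO-Linc1548, 94.9 in WT) were dim as well. The values of Chrd, Noto and Nog therefore do not show that these genes were unchanged. Of 12 pluripotency genes, 11 were at least 2-fold higher, with a summed signal of 84219 in KO-Linc1548 and 10220 in WT. Tdgf1 (4.54) and Tfcp2l1 (3.63) were the highest, and Pou5f1 (1.99) and Nanog (0.66, with probes at 2.95 and −1.63) the lowest. The part of these cell type markers in the differences of the hedgehog genes was not tested.

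Markers of other lineages had smaller median differences as lists. Of 12 endoderm genes, which include Foxa2, 6 were at least 2-fold higher (50%, against 11.5% of all genes). Only 1 was lower (8.33%, near the 8.81% of all genes), and the median was 0.66. Hnf4a (1.61) and Afp (1.39) were the highest and Foxa2 and Sox7 (−0.15) the lowest. The summed signal of the endoderm genes was 12743 in KO-Linc1548 and 25486 in WT. Without Foxa2 it was 6767 in KO-Linc1548 and 3515 in WT, so that 1 gene set its direction. Of 8 mesoderm genes, 1 was higher and 1 lower, or 12.5% each, near the shares of all genes (11.5% and 8.81%). Their median was −0.30, with a summed signal of 4301 in KO-Linc1548 and 5039 in WT. Eomes (3.22) and Tbx6 (0.20) lay at one end and Twist1 (−1.56) and T at the other. Mesp1, Msgn1 and Hand1 were not well above background on either array. Without T the mesoderm sum turned, to 1887 in KO-Linc1548 and 1344 in WT. The mesoderm median turned too, to 0.42 with no filter (3 genes higher) and to 0.17 with the stricter filter, and normexp or the stricter filter each left 0 genes lower. Of 10 neural crest and surface ectoderm genes, 1 was higher (10%) and 2 lower (20%), counts too small to set apart from the shares of all genes. Their median was −0.20, or 0.05 with no filter, with a summed signal of 35457 in KO-Linc1548 and 48343 in WT. Foxd3 (3.12) and Trp63 (0.68) were the highest and Gata3 (−2.04) and Krt8 (−1.32) the lowest. All 12 housekeeping genes were within 2-fold (median 0.19), from Hprt (−0.67) and Polr2a (−0.20) to Pgk1 (0.65) and Gapdh (0.66).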

How the data were processed

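The 2 arrays were scanned as 1-colour (Cy3) Agilent arrays. Per the file headers, spot intensity values were made with Agilent Feature Extraction 10.7.1.1: the processed intensity is background-subtracted and detrended within an array, and low signals are replaced by a surrogate. Both arrays lay on 1 slide and were scanned together, per the file headers. Here, outlier spots (155 in KO-Linc1548, 173 in WT) were left out, spots of a probe were averaged as log2, and each array was centred on its 75th percentile (652 in KO-Linc1548, 864 in WT); printed signals are scaled to a common percentile. Probes counted as measured where at least a share of 0.5 of their spots was well above background on both arrays and none was saturated, which left 31536 probes and 18671 genes (58.5% of probes were well above background in KO-Linc1548, 61.4% in WT; the number of arrays limits the precision). A gene's value is the median difference of its measured probes. Names other than those of the 9 genes were updated through a RefSeq table (GRCm38.p6, names only). Repeated spots of a probe had an SD of 0.07 (log2) in KO-Linc1548 and 0.065 in WT. A fixed limit of 2-fold was used, with no test. For genes well above background on 1 array, a fold is a lower bound against the higher of the dim signal and the lowest signal well above background on that array, at the brightest probe.

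The 9 genes, the 13 lists and the alternatives were chosen with earlier results of these data known, and the lowess alternative, the 100 kb neighbours and the like-signal comparison were added after values were seen. The text names all 9 genes, and of each list the 2 highest and 2 lowest measured genes and those well above background on 1 array only, except for some genes that are not reported here. With 2 arrays a pattern is 1 difference, so no likeness between genes was computed. List sums without the brightest gene were also added after values were seen. Python 3.11.15, R 4.3.3 and limma 3.58.1 were used.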

Additional observations from a re-analysis of the deposited data

How the results depend on the processing

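No paired analysis was possible because each group has 1 array, and no replicate could be left out for the same reason. The 8 settings were quantile normalization, spike-in centring, normexp background correction, no filter or a stricter filter on dim probes, the mean of a gene's probes or its brightest probe, and lowess on signal (chosen after seeing the data). Normexp added an offset of 50 to every signal, so lower counts under it partly follow from that offset where signals are dim. The number of hedgehog genes at least 2-fold lower was 7 as reported, 8 with spike-in centring, 5 with normexp, 6 with no filter and 7 in the other 5 settings. No hedgehog gene past 2-fold turned its sign; the difference of Gli2, within 2-fold, did so in 1 setting. With spike-in centring 2923 of all genes were lower by that limit and 1405 higher (1644 and 2149 as reported), and 11 transduction and cilium genes were lower and 1 higher (5 and 2). With normexp 1048 of all genes were lower, as were 2 ligand-making genes (4) and 2 transduction and cilium genes. With no filter, which kept 32943 genes, 2587 were lower and 4037 higher; 3 transduction and cilium genes and 10 ventral factors (6) were lower, and 1 ligand-making gene (0), 1 dorsal factor (0) and 4 targets of several tissues (2) were higher. The stricter filter, which kept 15045 genes, left 1404 higher. With the brightest probe, 8 transduction and cilium genes were lower and 1 ligand-making gene was higher. Spike-in centring moved the median of all genes by −0.38, no filter by 0.29 and quantile normalization by −0.10. The cause of these moves was not tested beyond the number of genes kept. Among the cell type lists, spike-in centring left 2 endoderm genes higher (6 as reported) and the stricter filter left 4 floor plate and notochord genes lower (7). Signal over background limits Hhip, Boc probe 1, Smo probe 1 and Gli1 probe 1.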

Other observations

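The last list holds genes reported as hedgehog targets in several tissues. Of 19 measured, 12 were lower by 2-fold or more in KO-Linc1548 (63.2%, against 8.81% of all genes) and 2 higher (10.5%, near the 11.5% of all genes), with a median of −1.63. Nr2f1 (COUP-TFI), a nuclear receptor of neural progenitors, read 1455 in KO-Linc1548 and 29265 in WT (−4.33), and Spon1, a secreted floor plate protein, read 38.4 in KO-Linc1548 and 423 in WT (−3.46), the first of these signals being close to background. Prdm1, a transcriptional repressor that acts in germ cell and other lineages, read 733 in KO-Linc1548 and 184 in WT (2.00). Igfbp3, an IGF-binding protein, read 6622 in KO-Linc1548 and 2266 in WT (1.55). Ccnd1 (−1.62) and Ccnd2 (−1.70), the cyclins of G1, were lower and Mycn (0.58) was within 2-fold; these 3 were picked for mention after their values were seen.

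Several pathway genes were well above background on 1 array only. Nkx2-2, a ventral progenitor factor, read 20.4 in KO-Linc1548 and 1332 in WT at the brighter of its 2 probes. That is at least 43.7-fold lower in KO-Linc1548, and the other probe was at least 10.72-fold lower. Olig2, the motor neuron progenitor factor, was at least 3.03-fold lower and Ferd3l at least 2.17-fold lower, whereas the bounds of Olig1 (1.11-fold) and Nkx2-1 (1.16-fold) were under 2-fold. Also well above background on the WT array alone were Disp2 (at least 1.66-fold lower in KO-Linc1548), Foxc2 (3.11-fold), Foxf2 (1.35-fold) and Msx3 (2.46-fold, at 1 of its 2 probes). On the KO-Linc1548 array alone, Foxl1 was at least 4.26-fold higher, Ptchd1 3.94-fold, Grem1 3.93-fold and the mesoderm gene Mixl1 1.87-fold. Sim1, Gpc5, Gdf7, Atoh1 and Osr1 were not well above background on either array.

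Of 36 probes within 100 kb of the probes of the 9 genes, 17 were measured on both arrays, of which 1 was at least 2-fold lower (9530036O11Rik beside Shh) and 1 at least 2-fold higher (Arhgap9 beside Gli1). Of all measured probes 8.44% were lower, and 10.5% higher, by 2-fold or more. A second Arhgap9 probe, 0.979 kb from the second Gli1 probe, was well above background on the KO-Linc1548 array alone, at 72.3 in KO-Linc1548 and 17.2 in WT. No probe of another gene lay within 100 kb of the Hhip or Gli2 probes.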
